A study of Mus musculus with 11 samples.

Results

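The genes described here encode the machinery that loads, docks and fuses synaptic vesicles: the SNARE proteins, the synaptotagmins, the complexins, the Rab3 GTPases and the proteins that organise them. They were chosen by symbol, as every mouse gene named Syt, Stx, Vamp, Snap (23, 25, 29, 47 or 91), Syn, Cplx, Rab3, Rims, Unc13, Sv2 or Stxbp with the numbers and letters of those families, together with Syp. The rule found 73 of the 53465 genes counted. The rule uses symbols alone. RNA was sequenced from mPFC CRF1+ neurons, the cells of the medial prefrontal cortex that carry the type 1 receptor of corticotropin releasing factor, from 11 adult male mice.

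All 11 mice carried the CRF1:GFP reporter, in which green fluorescent protein labels CRF1-expressing cells, and the labelled cells were collected by fluorescence-activated cell sorting. The 5 withdrawn mice had breathed ethanol vapor intermittently for 5 to 6 weeks, with injections of ethanol (1.75 g/kg) and pyrazole, an inhibitor of alcohol dehydrogenase (68.1 mg/kg), and were 5 to 8 days into abstinence. The 6 naïve mice received pyrazole and air. Each library held the sorted cells of 1 mouse, so n counts mice. For withdrawn mice 3, 4 and 5 a second label reads control. The design text gives the group sizes as 5 control and 6 ethanol. The genes with an unadjusted p under 0.05 and the DESeq2 calls are therefore also given without withdrawn mice 3 to 5. Those fits leave only withdrawn mice 1 and 2 against the 6 naïve mice.

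At a presynaptic terminal, vesicles filled with transmitter are tethered to the active zone by Rab3 and RIM proteins and primed by Munc13 proteins, which the Unc13 genes encode. Fusion is driven by a SNARE complex that joins a VAMP on the vesicle to a syntaxin and SNAP-25 on the plasma membrane, with the help of syntaxin-binding proteins. Complexin clamps the assembled complex, and synaptotagmin triggers fusion when calcium enters. Relatives of these proteins serve other membranes, so that the same gene families also hold syntaxins, VAMPs and synaptotagmins of endosomes, the Golgi and non-neuronal cells.

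In mPFC CRF1+ neurons most of these genes were slightly lower in withdrawn than in naïve mice, and none passed the thresholds of the edgeR quasi-likelihood test (a Benjamini-Hochberg adjusted p no higher than 0.05 together with an absolute log2 fold change above 0.6). Of the 73 genes, 68 passed the filter on low counts and were tested. The 5 that did not were Cplx4, Stx11, Stx19, Syt8 and Unc13d. At an unadjusted p under 0.05 there were 8 genes, of which 7 were lower in withdrawn mice (Vamp1, Cplx1, Rab3b, Cplx2, Snap25, Snap47 and Rab3a) and 1 was higher (Vamp8). Over all 17093 genes tested, 0.00585% passed the thresholds and 7.22% had an unadjusted p under 0.05, 2.22% lower and 5.00% higher. The 8 genes are 11.8% of the 68, the 7 lower ones 10.3%. The sorted cells were measured in bulk, where fewer cells of a type and less RNA per cell cannot be told apart.

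The 3 genes with the smallest p, Vamp1, Cplx1 and Rab3b, are shown here by the 250 bases before their annotated start, as the genes at the head of the edgeR list. The sequences are from RefSeq on GRCm38.p6 and read 5′ to 3′ on the strand of the gene, with capitals for the motifs searched. The stretches are chr6:125215331-125215580 on the plus strand for Vamp1, chr5:108550028-108550277 on the minus strand for Cplx1, and chr4:108878820-108879069 on the plus strand for Rab3b. The 3′ ends of the Vamp1 and Rab3b stretches reached into the first exon that GENCODE annotates for these genes.
Vamp1: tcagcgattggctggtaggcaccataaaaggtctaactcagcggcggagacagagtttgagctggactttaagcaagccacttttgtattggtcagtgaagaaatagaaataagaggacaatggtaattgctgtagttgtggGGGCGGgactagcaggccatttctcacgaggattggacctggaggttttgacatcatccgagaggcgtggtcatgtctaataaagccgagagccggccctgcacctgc
Cplx1: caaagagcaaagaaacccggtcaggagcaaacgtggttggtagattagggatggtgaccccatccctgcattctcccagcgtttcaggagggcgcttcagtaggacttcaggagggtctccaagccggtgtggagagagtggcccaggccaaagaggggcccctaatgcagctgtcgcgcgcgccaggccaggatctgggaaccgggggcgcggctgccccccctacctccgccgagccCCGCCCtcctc
Rab3b: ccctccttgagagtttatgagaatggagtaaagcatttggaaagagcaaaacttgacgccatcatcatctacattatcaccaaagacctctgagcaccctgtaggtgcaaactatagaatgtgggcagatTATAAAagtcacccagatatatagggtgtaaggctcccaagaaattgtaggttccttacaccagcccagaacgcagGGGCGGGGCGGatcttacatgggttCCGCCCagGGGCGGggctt
The motifs searched on both strands were the GC box GGGCGG, the TATA box TATAAA, the cAMP response element TGACGTCA and the E-box CACGTG. A GC box began 108 bases before the start of Vamp1 and, on the other strand, 11 bases before that of Cplx1. Rab3b had 4 GC boxes within 44 bases of its start and a TATA box 120 bases before it.

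RefSeq's table held 57 of the 73 genes, with 73 promoters between them, as some genes have several starts. A GC box was present in 60.3% of these promoters and in 32.7% of all 32851 promoters of the same length. The other motifs were rarer, with the TATA box in 6.85% (12.4% of all promoters), the E-box in 12.3% (6.02%) and the cAMP response element in 2.74% (1.55%). The cAMP response element was found for Syn1 and Stxbp3. A match is a run of letters and not a measured binding site.

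Each library had between 7351567 and 22244869 counts on genes. At this depth 3 counts amount to 0.135 to 0.408 CPM without TMM scaling. This is a limit of counting error alone, as amplified reads are not independent molecules. CPM values given for single mice are counts scaled to the TMM-normalized library size. Levels are compared between mice in CPM and between genes in TPM, which divides the counts by the exonic length of the gene and scales every mouse to the same total. Neuronal markers were abundant in every mouse, with glutamatergic markers summing to 1456 to 3320 CPM. All 8 pan-neuronal markers tested were lower in withdrawn mice, 3 of them at an unadjusted p under 0.05 (Nefl, Nefm and Elavl4). The sum of the 8 was 3432 to 3822 CPM in naïve and 2150 to 3422 CPM in withdrawn mice. These sums did not overlap, by a narrow margin between naïve mouse 3 and withdrawn mouse 5, but each marker alone did. Of 8 fibroblast markers, the 6 tested were all higher in withdrawn mice, 5 at an unadjusted p under 0.05. Lum and Igf2 did not pass the filter on low counts and had lower means in withdrawn mice. Lum was at 1.36 CPM in naïve and 0.910 CPM in withdrawn mice, Igf2 at 0.468 and 0.0916 CPM. The 8 markers summed to 0.0677 to 73.1 CPM in naïve and 18.4 to 1318 CPM in withdrawn mice. No marker of these lists was at 0 in all mice of a group. The part of these markers in the differences given below was not tested.

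Levels ran from under 1 TPM to over 1000 TPM, and the exocytosis genes of neurons stood at the top. Of the 73 genes, 22 had a mean TPM of at least 100, 31 of 10 to 100, 17 of 1 to 10 and 3 under 1 (Stx11, Stx19 and Syt8). In 59 genes a count was present in every mouse. Snap25 was the most abundant, at 2238 ± 528 TPM (SD, n = 11), rank 15 of all genes, followed by Rab3a at 1581 ± 339 and Snap47 at 1231 ± 286 TPM. Syn1 was at 1018 ± 190, Vamp2 at 911 ± 158 and Syt1 at 781 ± 118 TPM, and each of these 6 overlapped the next in its range over mice. The 5 most abundant of the 73 genes were among the 100 most abundant of all genes and held 47.5% of the TPM of the 73. The low end held genes known from other cells, such as Syt8, with a count in 3 of 11 mice, and Stx11, with a count in 6.

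**Figure D1:**
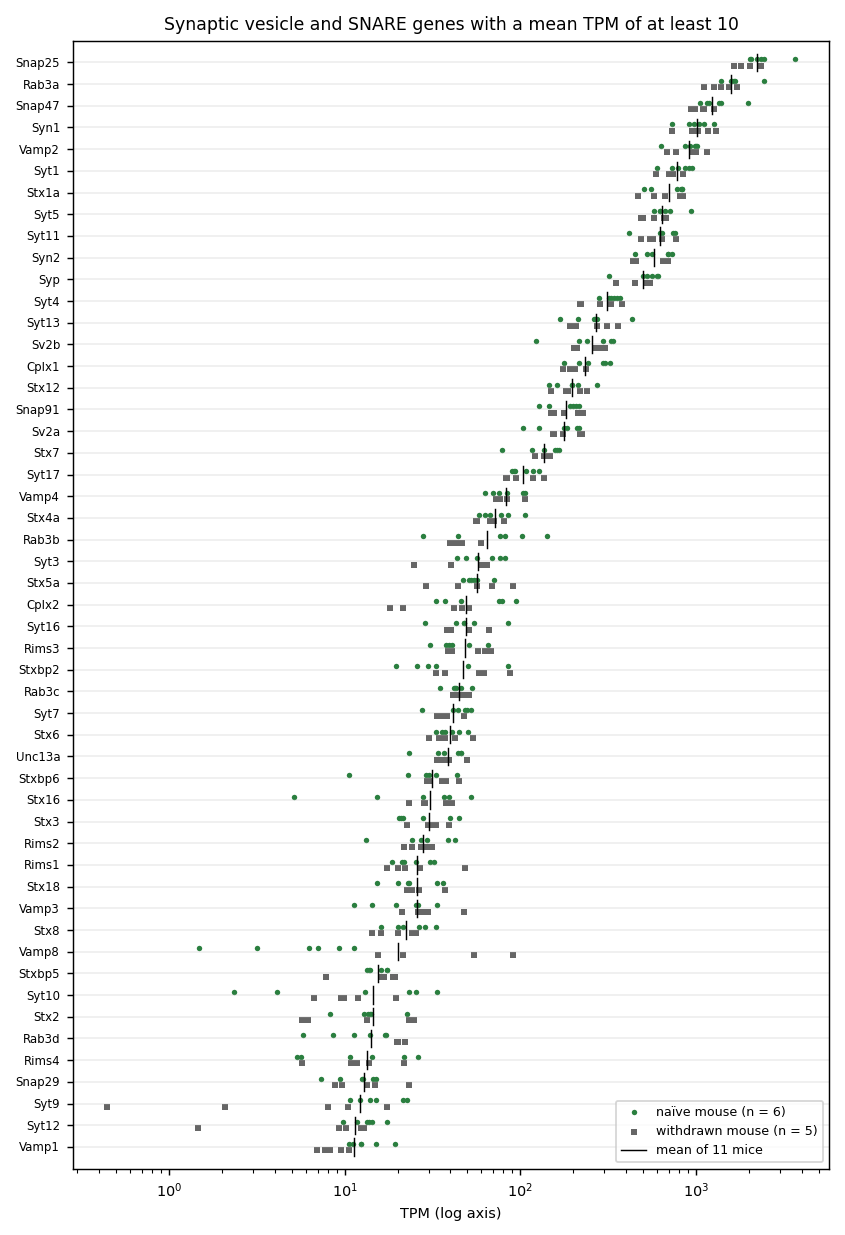
TPM of the genes reported here with a mean of at least 10 TPM, on a log axis, in each naïve mouse (green circles, n = 6) and each withdrawn mouse (grey squares, n = 5), with the mean of 11 mice as a vertical bar. Snap25 leads and Vamp1, at a mean of 11.3 TPM, is the lowest shown. Withdrawn mouse 2 had no counts of Vamp8 and Rab3d, and these values of 0 cannot be drawn on the axis.

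Among the proteins of the vesicle membrane and surface, levels did not pass the test in any of the 8 genes, and 6 were lower in withdrawn mice. Syn1 encodes synapsin I, which ties vesicles to each other and to actin. It was at 940, 1075 and 1431 CPM (lowest, median and highest) in naïve mice and at 982, 1362, 1371, 679 and 1084 CPM in withdrawn mice 1 to 5. Withdrawn mouse 4 was below every naïve mouse and the others were within the naïve range. In the edgeR fit the log2 fold change was -0.03 ± 0.19 (SE, adjusted p = 0.985), with a 95% interval of -0.43 to 0.37.

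Syp encodes synaptophysin, the most widely used vesicle marker. It was at 738, 892 and 1082 CPM in naïve mice and 737, 908, 968, 513 and 889 CPM in withdrawn mice, where mouse 4 was again the lowest (log2 fold change -0.18 ± 0.17, edgeR adjusted p = 0.895). The vesicle glycoproteins Sv2a and Sv2b, of which Sv2a binds the drug levetiracetam, had log2 fold changes of 0.05 ± 0.19 and -0.07 ± 0.21. Both overlapped over most of their ranges, at 185 to 342 against 205 to 328 CPM for Sv2a and 457 to 958 against 477 to 866 CPM for Sv2b. The third member of the family, Sv2c, had mean levels of 8.76 CPM in naïve and 4.24 CPM in withdrawn mice with no count in 2 mice, and its log2 fold change of -1.05 had an interval of -3.72 to 1.62. By TPM, synapsin I held 36.6 ± 2.20% of this group in naïve and 38.4 ± 1.98% in withdrawn mice, and synaptophysin 18.8 ± 1.90% and 17.9 ± 1.17%. Syp shares 875 exonic bases with Gm14703 on the opposite strand, and the counting is not stated to use strand.

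The Rab3 GTPases sit on vesicles and recruit RIM. Rab3a, the main neuronal form, was at 1626, 1050, 1225, 1223, 1706 and 1054 CPM in naïve mice 1 to 6 and at 881, 1211, 1098, 704 and 1101 CPM in withdrawn mice 1 to 5. The groups overlapped: withdrawn mice 1 and 4 were below every naïve mouse, and naïve mice 1 and 5 stood above all others. Rab3a was 1.32-fold lower in withdrawn mice, a log2 fold change of -0.40 ± 0.18, with an unadjusted p of 0.0499 and an edgeR adjusted p of 0.692. In edgeR fits it was -0.29 without withdrawn mouse 4 (unadjusted p = 0.133) and -0.30 without naïve mouse 5 (unadjusted p = 0.109).

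Rab3b, a form of lower abundance in cortex, was at 129, 146, 51.0, 34.0, 85.0 and 122.9 CPM in naïve mice and at 47.4, 52.3, 56.2, 59.1 and 44.9 CPM in withdrawn mice. Withdrawn mice lay close together inside the naïve range, and no withdrawn mouse was below every naïve mouse, as naïve mouse 4 was the lowest of all. This is a 1.82-fold lower mean level (log2 fold change -0.86 ± 0.32), with an unadjusted p of 0.0189 and an edgeR adjusted p of 0.506. The coefficient of variation was 47.9% in naïve and 11.4% in withdrawn mice. Naïve mice 1, 2 and 6, which had the most Rab3b, also had the most Sst, a neuropeptide gene of one class of GABAergic neurons, at 699, 473 and 289 CPM. In the other naïve mice Sst was at 0.0677 to 23.3 CPM, and in withdrawn mice 1 to 5 it was at 0, 0, 0, 32.6 and 0.0707 CPM (log2 fold change -5.33 ± 2.07, unadjusted p = 0.0221, edgeR adjusted p = 0.545). The other 7 GABAergic markers gave a different order, with the largest naïve sum, 333 CPM, in mouse 3, and sums of 572 and 732 CPM in withdrawn mice 1 and 2. Endothelial markers summed to 522, 507 and 775 CPM in naïve mice 1, 2 and 6, against 3.18 to 111 CPM in the other naïve mice. In withdrawn mice 1 to 5 they summed to 39.5, 148, 54.0, 651 and 67.3 CPM. Withdrawn mouse 4 was above naïve mice 1 and 2 in this sum, with Rab3b at 59.1 CPM. The part of these cell types in the difference was not tested. Rab3b shares 317 exonic bases with 8030443G20Rik on the opposite strand.

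Rab3c had a log2 fold change of -0.01 (95% interval -0.37 to 0.35) and Rab3d, often found in secretory cells, of 0.34 (-1.29 to 1.96). Rab3a held 92.5 ± 2.68% of the TPM of the 4 genes in naïve and 92.6 ± 1.74% in withdrawn mice.

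The vesicle SNAREs, or VAMPs, held both the gene with the smallest p and the only one of the 8 that was higher. Vamp1 encodes synaptobrevin 1, a close relative of the main neuronal form. It was at 50.2, 44.8, 64.9, 43.6, 33.6 and 42.8 CPM in naïve mice 1 to 6 and at 33.4, 30.8, 27.9, 19.9 and 27.0 CPM in withdrawn mice 1 to 5. Every withdrawn mouse was below every naïve mouse, by a narrow margin between naïve mouse 5 and withdrawn mouse 1, and on CPM without TMM scaling the groups overlapped. Among all genes tested, the groups did not overlap in 0.948%, with withdrawn mice below in 0.257% and above in 0.690%. Vamp1 was the only one of the 68 without overlap.

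The log2 fold change of Vamp1 was -0.75 ± 0.22, 1.68-fold lower, with a 95% interval of -1.23 to -0.26, an unadjusted p of 0.0052 and an edgeR adjusted p of 0.327. DESeq2's Wald test called it, at a log2 fold change of -0.72 ± 0.21 and an adjusted p of 0.0380. That call was lost without withdrawn mouse 4 (DESeq2 adjusted p = 0.151) and without the 3 mice with conflicting labels (DESeq2 adjusted p = 0.630). Over all 9 alternatives the adjusted p ran from 0.0380 to 0.802. By DESeq2, 1.66% of all genes with an adjusted p were called, 1.57% higher and 0.0915% lower. The unadjusted p of Vamp1 stayed under 0.05 without any 1 of the 11 mice, with log2 fold changes of -0.83 to -0.62, and was 0.0993 without the 3 mice with conflicting labels, at a log2 fold change of -0.59. The gene lies at chr6:125215551-125245964 on the plus strand and shares no exonic bases with a gene on the other strand.

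Vamp2, which encodes synaptobrevin 2, the VAMP of most central synapses, was at 1033, 1157 and 1305 CPM in naïve mice and at 923, 1400, 1350, 736 and 1177 CPM in withdrawn mice. Withdrawn mice lay on both sides of the naïve range, with 2 below and 2 above it, and the log2 fold change was -0.06 ± 0.17 (edgeR adjusted p = 0.970). Of the TPM of the pair Vamp1 held 1.47 ± 0.274% in naïve mice (1.20 to 1.87%) and 0.956 ± 0.231% in withdrawn mice (0.768 to 1.34%). The shares of the groups overlapped, as withdrawn mouse 1 was above 3 naïve mice.

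Vamp8, known from regulated secretion and endosome fusion outside neurons, was at 6.44, 6.31, 1.12, 5.65, 2.30 and 8.89 CPM in naïve mice and at 39.6, 0, 17.6, 59.6 and 11.5 CPM in withdrawn mice. Withdrawn mice 1, 3, 4 and 5 were above every naïve mouse, and withdrawn mouse 2 had no count. At its depth this allows up to 0.345 CPM, the value of 3 counts without TMM scaling. Vamp8 was 4.99-fold higher in withdrawn mice, a log2 fold change of 2.32 ± 0.94 (95% interval 0.31 to 4.33), with an unadjusted p of 0.0267 and an edgeR adjusted p of 0.581. Without withdrawn mouse 4 it was 1.73 with a p of 0.101. Fibroblast markers summed to 1318, 18.4, 672, 927 and 225 CPM in withdrawn mice 1 to 5. Mice 1 and 4 had the most of both and mouse 2 the least of both. The sums of microglial markers, 41.3, 8.28, 37.8, 45.1 and 29.1 CPM, and of astrocyte markers, 590, 257, 551, 678 and 446 CPM, put the withdrawn mice in the same order as Vamp8. In naïve mice these sums were 8.81 to 26.2 and 315 to 533 CPM. The part of other cells in the level of Vamp8 was not tested.

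The remaining VAMPs gave wider or smaller estimates. Vamp3, the form of most body cells, was at 10.2 to 33.0 CPM in naïve and 19.5 to 39.0 CPM in withdrawn mice (log2 fold change 0.38 ± 0.32). Vamp4, of the trans-Golgi network, had a log2 fold change of -0.10 (95% interval -0.44 to 0.24). Vamp5, the neighbour of Vamp8 on chromosome 6, was at 0 to 5.91 CPM in naïve and 0.140 to 6.15 CPM in withdrawn mice, so that both groups covered the same low range. Vamp9 had a count in 7 of 11 mice and none above 1.97 CPM.

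**Figure D2:**
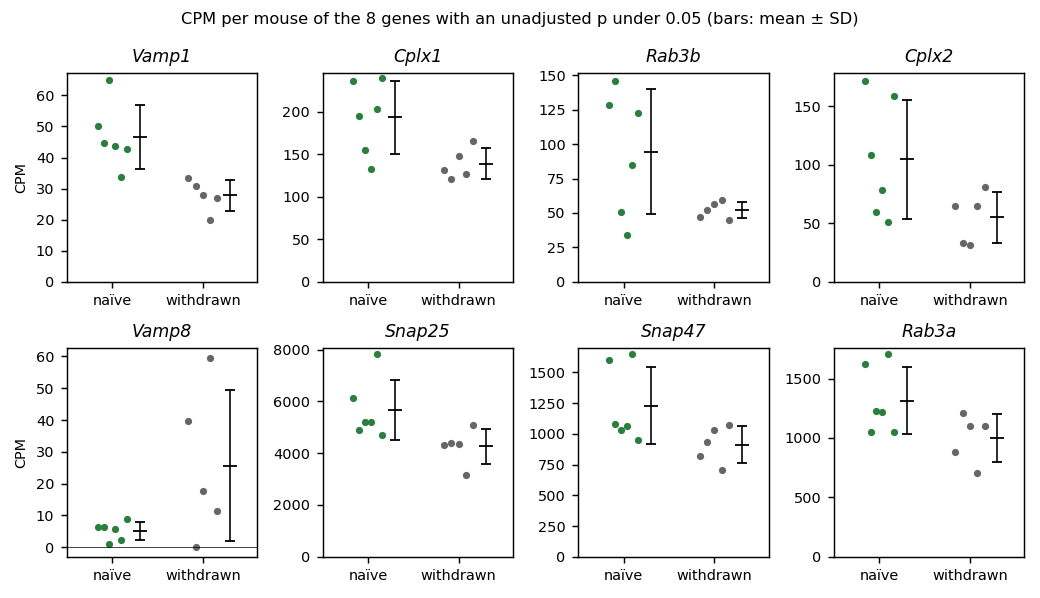
CPM of the 8 genes with an unadjusted p under 0.05 in each naïve mouse (green, n = 6) and each withdrawn mouse (grey, n = 5), with mean and SD as bars, each panel on its own linear axis from 0. The groups overlap in all panels but that of Vamp1, where 33.6 CPM is the lowest naïve and 33.4 CPM the highest withdrawn value.

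The SNAP-25 family supplies the other plasma membrane SNARE. Snap25, the neuronal form, was at 6126, 4878, 5198, 5218, 7821 and 4714 CPM in naïve mice and at 4310, 4395, 4347, 3169 and 5080 CPM in withdrawn mice. Withdrawn mice 1 to 4 were below every naïve mouse, and withdrawn mouse 5 was above naïve mice 2 and 6. Snap25 was 1.33-fold lower, a log2 fold change of -0.41 ± 0.17, with an unadjusted p of 0.0307 and an edgeR adjusted p of 0.614.

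Snap47, a relative without the membrane anchor that is abundant in brain, was at 1604, 1082, 1034, 1061, 1649 and 947 CPM in naïve and at 816, 934, 1034, 704 and 1075 CPM in withdrawn mice. As with Snap25 and Rab3a, naïve mice 1 and 5 were the highest and withdrawn mouse 4 the lowest. Its log2 fold change was -0.43 ± 0.19, 1.35-fold lower, with an unadjusted p of 0.0366 and an edgeR adjusted p of 0.648. It shares 307 exonic bases with Jmjd4 on the opposite strand. Leaving out withdrawn mouse 4 gave an edgeR unadjusted p of 0.0759 for Snap25 and 0.0971 for Snap47, with log2 fold changes of -0.32 and -0.35. Without naïve mouse 5 these p-values were 0.0586 and 0.0850, with log2 fold changes of -0.29 and -0.32.

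Snap23, the ubiquitous form, ran the other way, with 13.4, 9.00, 2.91, 6.76, 9.89 and 13.4 CPM in naïve and 20.2, 8.51, 19.1, 16.4 and 19.0 CPM in withdrawn mice. All withdrawn mice but mouse 2 were above every naïve mouse, the log2 fold change was 0.85 ± 0.43 and the unadjusted p was 0.0694 (edgeR adjusted p = 0.736). Its share of the TPM of Snap23 and Snap25 was 0.263 ± 0.126% in naïve and 0.626 ± 0.197% in withdrawn mice. Within the family Snap25 held 64.1 ± 2.37% of the TPM in naïve and 64.0 ± 1.96% in withdrawn mice, and Snap47 35.4 ± 2.42% and 35.1 ± 1.84%.

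**Figure D3:**
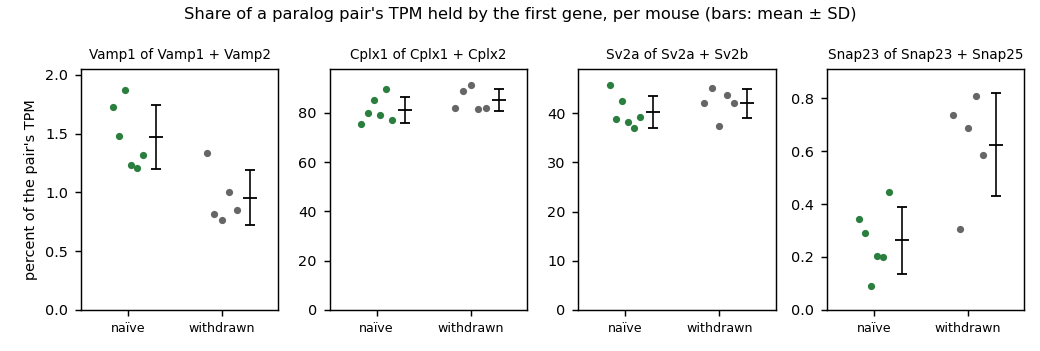
Percent of the summed TPM of 2 related genes that the first of them held, in each naïve mouse (green, n = 6) and each withdrawn mouse (grey, n = 5), with mean and SD as bars and linear axes from 0. The shares of Vamp1 and Snap23 lie lower and higher in withdrawn mice with some overlap, and those of Cplx1 and Sv2a overlap widely.

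None of the 5 plasma membrane syntaxins tested had an unadjusted p under 0.05. Stx1a, a syntaxin of neuronal exocytosis, was at 505, 652 and 757 CPM in naïve mice and at 482, 710, 627, 352 and 696 CPM in withdrawn mice (log2 fold change -0.18 ± 0.19, edgeR adjusted p = 0.909). Withdrawn mice 1 and 4 were below every naïve mouse and the others inside the naïve range. Stx1a held 70.9 ± 4.18% of the summed TPM of the 7 plasma membrane syntaxins measured in naïve and 69.2 ± 4.49% in withdrawn mice. All 5 log2 fold changes of the group were below 0, from -0.30 for Stx4a, of constitutive and regulated exocytosis in many cells, to -0.01 for Stx3.

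Stx11, a syntaxin known from the killing granules of lymphocytes, was too low for the edgeR test but was called by DESeq2 (adjusted p = 0.0155). It had 2 counts over all naïve mice and 13, 0, 1, 70 and 14 counts in withdrawn mice 1 to 5, up to 8.61 CPM. The ratio of the pooled levels was 65.5 (exact 95% interval 17.7 to 548). It was 21.0 (5.31 to 182) without withdrawn mouse 4 and 25.7 (5.82 to 235) without mice 3 to 5. These intervals leave out the spread between mice and treat reads as independent, which amplified reads are not. DESeq2 gave no adjusted p without mouse 4 (unadjusted p = 0.0303) or without mice 3 to 5 (unadjusted p = 0.236). With no low-count filter, edgeR gave an adjusted p of 0.213. Fibroblast markers summed to 1318, 927 and 225 CPM in withdrawn mice 1, 4 and 5, which held nearly all of the counts, and to 18.4 and 672 CPM in mice 2 and 3. The part of other cells was not tested. Stx19, the other syntaxin not tested, was at no more than 1.67 CPM in any mouse.

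The syntaxin-binding proteins assist or restrain the assembly of SNARE complexes. None of the 6 had an unadjusted p under 0.05, and 4 were higher in withdrawn mice. Stxbp2 and Stxbp3, the forms of non-neuronal cells, had log2 fold changes of 0.38 ± 0.31 and 0.78 ± 0.48 (unadjusted p = 0.252 and 0.126). Stxbp5, which encodes tomosyn, an inhibitor of SNARE assembly, had mean levels of 86.4 CPM in naïve and 82.7 CPM in withdrawn mice, with a 95% interval of the log2 fold change of -0.53 to 0.40.

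Of the 4 complexins, the 3 tested were lower in withdrawn mice, and of these Cplx1 and Cplx2 had an unadjusted p under 0.05. Cplx4 was too low to test and went the other way. It held 0.120 ± 0.125% of the complexin TPM in naïve and 1.18 ± 1.71% in withdrawn mice. In level, 2 withdrawn mice were above every naïve mouse. Cplx1 was at 236, 195, 155, 133, 203 and 239 CPM in naïve mice and at 131, 121, 148, 127 and 166 CPM in withdrawn mice. Withdrawn mice 1, 2 and 4 were below every naïve mouse, and the other 2 lay in the lower part of the naïve range. The log2 fold change was -0.48 ± 0.18 (95% interval -0.86 to -0.10), 1.39-fold lower, with an unadjusted p of 0.0163 and an edgeR adjusted p of 0.491. Its unadjusted p stayed under 0.05 without any 1 mouse.

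Cplx2 was at 171, 108, 60.0, 78.2, 51.1 and 158 CPM in naïve mice and at 65.0, 33.4, 31.4, 64.5 and 80.7 CPM in withdrawn mice. Naïve mice 1, 2 and 6 were above every withdrawn mouse, and withdrawn mice 2 and 3 were below every naïve mouse. Cplx2 was 1.90-fold lower, with a log2 fold change of -0.93 ± 0.36 (95% interval -1.69 to -0.16), with an unadjusted p of 0.0214 and an edgeR adjusted p of 0.536. The 3 naïve mice with the most Cplx2 were those with the most Rab3b, the most Sst and the largest endothelial marker sums of the naïve mice, and 2 of them also had the most Cplx1. Withdrawn mouse 4, with an endothelial sum of 651 CPM, had Cplx2 at 64.5 CPM. The part of those cells was not tested. Cplx1 held 81.3 ± 5.37% of the TPM of the pair in naïve and 85.3 ± 4.63% in withdrawn mice. Cplx3, a retina and subplate form, was at a mean of 6.18 CPM in naïve and 5.67 CPM in withdrawn mice (95% interval of the log2 fold change -2.74 to 2.48).

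Of the 16 synaptotagmins tested, 13 were lower in withdrawn mice and none had an unadjusted p under 0.05. Syt1, the calcium sensor of fast release, was at 1916, 2279 and 2508 CPM in naïve mice and at 1822, 1966, 2506, 1394 and 2259 CPM in withdrawn mice. Withdrawn mice 1 and 4 were below every naïve mouse and the others inside their range. The log2 fold change was -0.20 ± 0.16, with a 95% interval of -0.54 to 0.14 (edgeR adjusted p = 0.865). Syt5 came closest to the threshold, at 453 to 701 CPM in naïve and 336 to 507 CPM in withdrawn mice (-0.35 ± 0.17, unadjusted p = 0.0524). Syt9, related to Syt1 in function, had the lowest log2 fold change of the 68 genes, -1.12 ± 0.66, with 14.4 to 28.0 CPM in naïve and 0.560 to 22.1 CPM in withdrawn mice. Syt2, the fast sensor of parvalbumin cells and hindbrain, was below 5.3 CPM in naïve mice and reached 20.4 CPM in withdrawn mouse 2 (log2 fold change 1.66, 95% interval -1.02 to 4.34). By TPM, Syt1 held 26.6 ± 3.21%, Syt5 22.7 ± 3.12% and Syt11 20.6 ± 1.63% of the family in naïve mice, and 27.1 ± 2.24%, 21.0 ± 1.24% and 21.8 ± 1.84% in withdrawn mice.

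The proteins that tether and prime vesicles at the active zone held no gene with an unadjusted p under 0.05. Among the 7 genes tested, 3 were higher and 4 lower, the log2 fold changes ran from -0.23 (Rims2) to 0.23 (Unc13b), and the smallest unadjusted p was 0.272. Rims1, which encodes the scaffold RIM1, was at 48.9, 61.5 and 77.7 CPM in naïve mice and at 62.2, 112, 52.1, 46.0 and 41.2 CPM in withdrawn mice, with withdrawn mouse 2 above and mice 4 and 5 below the naïve range. Its log2 fold change was 0.01 ± 0.25. Rims3, the most abundant of the group by TPM, was at 94.3, 108 and 179 CPM in naïve mice and at 102, 158, 162, 87.8 and 175 CPM in withdrawn mice (0.19 ± 0.23). Unc13a, which encodes the priming factor Munc13-1, was at 191, 164, 192, 200, 92.2 and 157 CPM in naïve and at 145, 199, 161, 120 and 160 CPM in withdrawn mice (-0.08 ± 0.20), with naïve mouse 5 far below the other naïve mice. It shares 495 exonic bases with Colgalt1 on the opposite strand.

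The syntaxins of the endoplasmic reticulum, Golgi and endosomes serve traffic within the cell, and their levels were close between the groups. Of the 8 genes 6 were lower, with log2 fold changes from -0.41 (Stx8) to 0.56 (Stx17) and a smallest unadjusted p of 0.111. Stx12, an endosomal syntaxin and the most abundant by TPM, was at 177, 210 and 256 CPM in naïve mice and at 187, 183, 248, 135 and 245 CPM in withdrawn mice (-0.09 ± 0.17). Stx7 of late endosomes had the smallest error of all 68 genes, with a log2 fold change of -0.04 ± 0.14 and a 95% interval of -0.35 to 0.27.

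**Figure D4:**
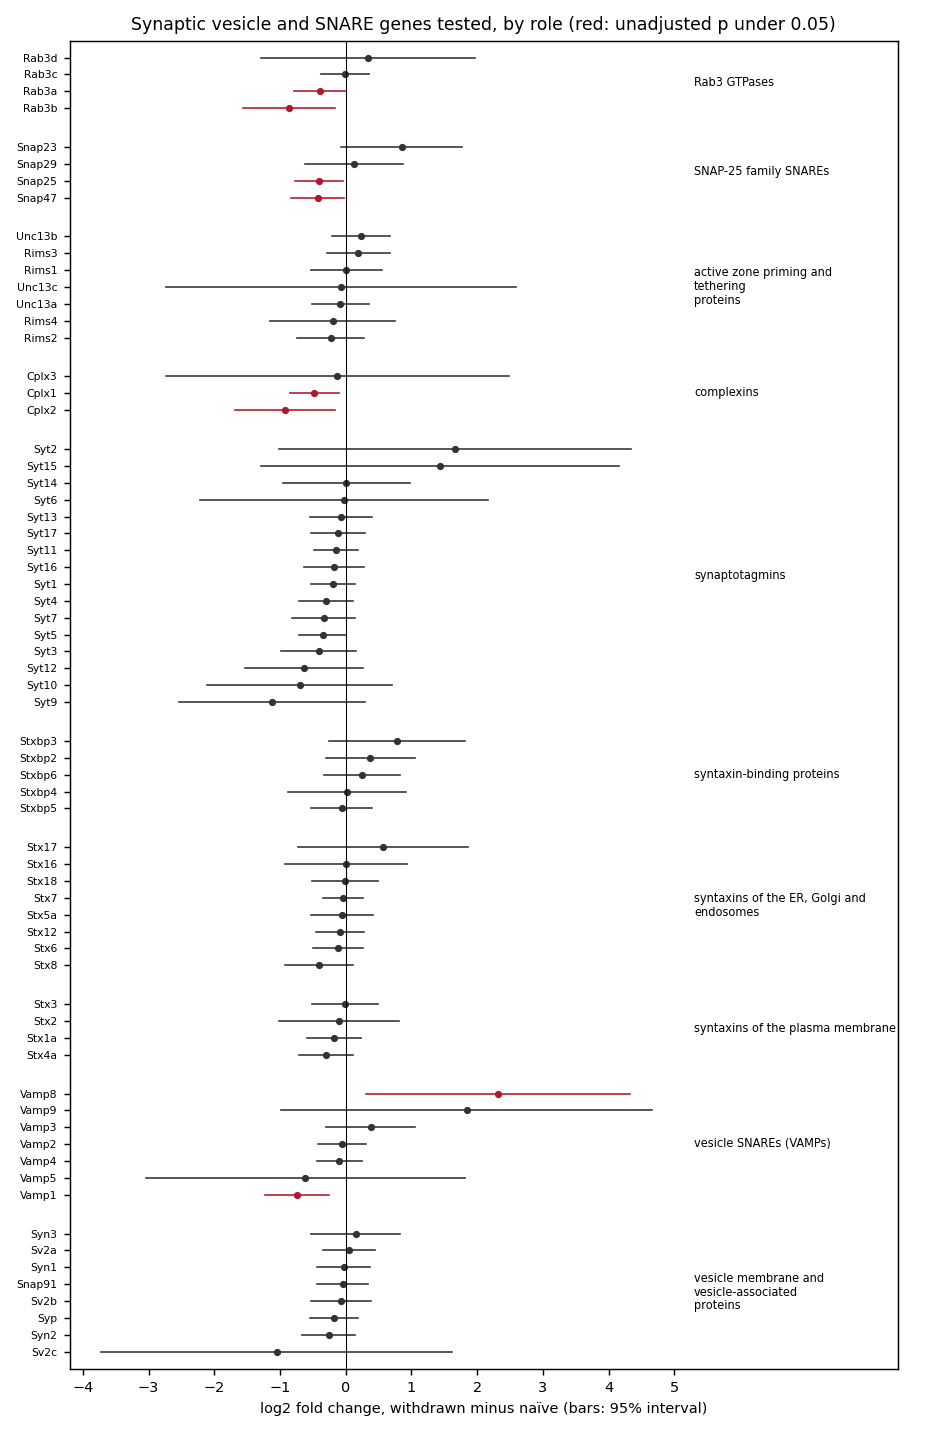
Log2 fold change (withdrawn minus naïve) of 66 genes tested, by role, with the 95% interval of the edgeR fit as a horizontal bar and genes with an unadjusted p under 0.05 in red. Of the 8 red genes 7 lie left of 0 and Vamp8 lies right of it, and most intervals lie within 1 of 0.

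Over all roles, 48 of the 68 genes (70.6%) were lower in withdrawn mice, against 48.2% of all genes tested. The median log2 fold change was -0.07 against 0.02 over all genes, and the estimates ran from -1.12 (Syt9) to 2.32 (Vamp8). All 8 pan-neuronal markers (median -0.30) and 6 of 8 glutamatergic markers (median -0.07) were lower too. Of 8 GABAergic markers 6 were higher (median 0.36). The part of a wider neuronal difference in the 68 genes was not tested. For 45 of the 68 genes the 95% interval lay between -1 and 1, so that a doubling or halving fell outside it. In a core set of 16 genes of neuronal release (among them Syp, Sv2a, Sv2b, Syn1, Rab3a, Vamp1, Vamp2, Stx1a, Snap25, Cplx1, Cplx2, Syt1, Rims1 and Unc13a), 14 were lower and 5 of these had an unadjusted p under 0.05 (31.25% of the set, against 2.22% of all genes lower at that p). This core set was chosen with earlier results of these data known. Its share therefore describes the chosen genes, is no evidence of an excess over all genes, and was not tested. All these genes were measured in the same mice, so that such counts are not counts of independent events.

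Withdrawn mouse 4 was the lowest of the 11 mice for 9 of the 16 core genes and for 21 of the 68. Its core genes summed to 10038 CPM, against 13102 to 16083 CPM in the other withdrawn mice and 15508 to 18189 CPM in naïve mice. This mouse also had the fewest counts, the lowest sum of neuronal markers (2150 CPM), and 58.0% of its reads not assigned to a gene, against 18.9 to 50.2% in the other mice. Naïve mouse 5 was the lowest for 19 of the 68 genes and had the fewest genes detected, 15585 against 22551 to 31830. Without withdrawn mouse 4 the median log2 fold change of the genes tested was -0.04. The number with an unadjusted p under 0.05 was then 4 of 69 (5.80%, against 5.08% of all genes), all lower in withdrawn mice. It was also 4 of 69 without naïve mouse 1 (against 6.42%) or without withdrawn mouse 1 (against 5.03%), so that in these fits the share was near that of all genes. Leaving out the 3 withdrawn mice with conflicting labels set only withdrawn mice 1 and 2 against the naïve mice. That fit left 4 of 70 genes (5.71%, against 6.27% of all genes) at an unadjusted p under 0.05. Of the 8 it kept Cplx1 (edgeR unadjusted p = 0.0302) and Cplx2 (0.0478), with log2 fold changes of -0.67 and -1.13. In that fit Snap47, Rab3b, Snap25, Rab3a and Vamp8 had unadjusted p-values of 0.0603, 0.0784, 0.0804, 0.146 and 0.164, with log2 fold changes of -0.55, -0.98, -0.43, -0.39 and 1.92.

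**Figure D5:**
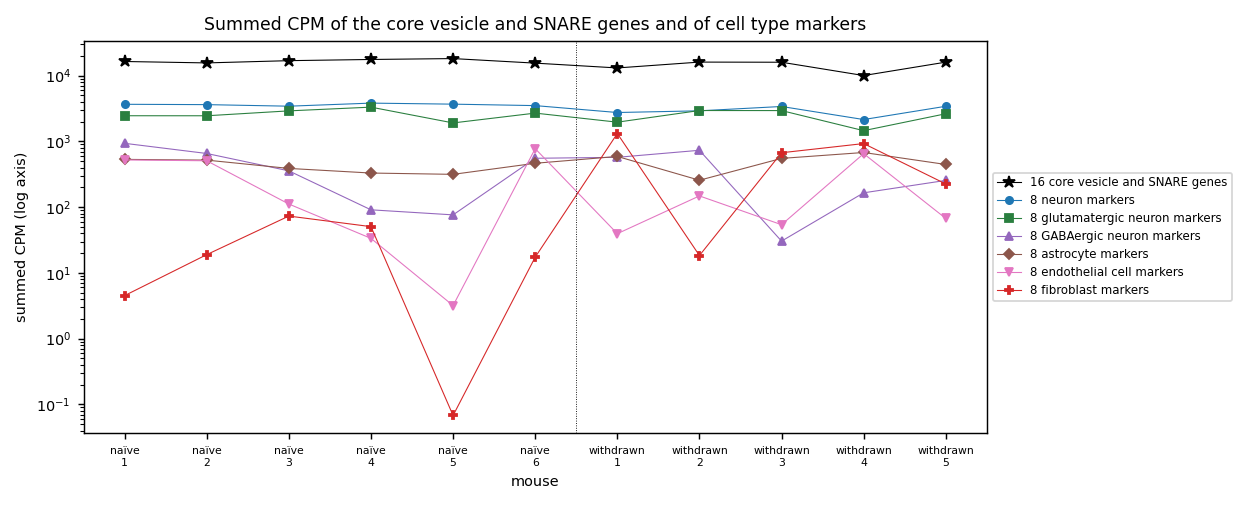
Summed CPM, on a log axis, of the 16 core vesicle and SNARE genes (black stars) and of marker lists of 6 cell types in each of the 11 mice, with naïve mice left of the dotted line. The core genes vary from 10038 CPM in withdrawn mouse 4 to 18189 CPM in naïve mouse 5, while fibroblast markers run from 0.0677 to 1318 CPM.

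Other genes of the vesicle cycle, from a list of 39 that the naming rule does not cover, also gave no call in edgeR or DESeq2. Of these, 25 were lower and 14 higher in withdrawn mice, with a median log2 fold change of -0.09, and 1 had an unadjusted p under 0.05 (2.56%, against 7.22% of all genes). All 7 genes of SNARE disassembly and chaperoning were lower (median -0.24), and of 8 genes of vesicle endocytosis 6 were lower (median -0.11). The scaffold of the active zone, other vesicle proteins and other calcium sensors with priming and tethering proteins each had 4 higher and 4 lower, with medians of 0.01, -0.02 and -0.02. Over all genes 48.2% were lower, and differences between these parts were not tested.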

How the data were processed

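RNA of FACS-sorted mPFC CRF1+ neurons (160 pg per mouse, SMARTseq HT, 14 PCR cycles for cDNA, single reads of 75 nt) came from 6 naïve and 5 withdrawn mice. Adapters were removed by the authors with cutadapt 1.18, alignment to GRCm38 used STAR 2.5.2a with Ensembl release 91, and genes were counted by HTSeq 0.11.0. These deposited values are raw counts for each gene and mouse, not normalized, and the strand setting is not given in the sources used here. Rows of unassigned reads were left out of library sizes, and were 18.9 to 58.0% of the reads. Symbols, coordinates and exonic lengths were from GENCODE M21, with a symbol for 53274 of the 53465 genes.

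Groups follow each sample's title and treatment. The main test was edgeR 4.0.16 in R 4.3.3 (TMM, filterByExpr with a minimum count of 10 and a minimum total of 15, quasi-likelihood, Benjamini-Hochberg adjustment over all genes). SE is the log2 fold change divided by the square root of F. DESeq2 1.42.0 and limma 3.58.1 (voom) were alternatives; the authors used DESeq2 1.20.0. Some genes of the group enter the counts but are not reported here by name. The genes named were the core set, the most abundant gene of each role, all with an unadjusted p under 0.05, separated groups or a DESeq2 call, and of the pathway list those with an unadjusted p under 0.05. Snap23, Sv2c, Syt2, Syt5, Syt9, Stx7 and other members named with values were added after their values were seen. The gene group, its roles and all lists were chosen with earlier results of these data known. Mice with the same number are different animals, and correlations of their deviations from the group means ran from -0.20 to 0.18, so the main fit has no block. No 2 libraries were duplicates (chi-square per degree of freedom at least 25.6 within groups).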

Additional observations from a re-analysis of the deposited data

Results flagged for a closer look

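Unc13a in naïve mouse 5 lay further from its group than Dixon's 95% limit allows, with a log2 CPM of 6.54 (92.2 CPM, 1362 counts), while the other naïve mice were at 157 to 200 CPM. Among the 43 sets of values of 1 group examined, this was the only one past the limit, and chance gives about 1 in 20, or 2.15 sets. That library also had the fewest genes detected, 15585, and the part of this in the value was not tested.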

How the results depend on the processing

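The count of 0 vesicle and SNARE genes past the thresholds held in every edgeR and voom alternative and without each mouse in turn. By DESeq2 it was 2 of the 73 (Vamp1 and Stx11). Over all genes, 0.00585% passed in the main test, and DESeq2 called 1.66% of those with an adjusted p. In fits chosen after seeing the data, DESeq2 did not call Vamp1 without withdrawn mouse 4 (log2 fold change -0.63) or without the 3 mice with conflicting labels (-0.49), and gave Stx11 (4.27 and 4.22) no adjusted p. For the other vesicle cycle genes the count past the thresholds was 0 in every alternative and without each mouse in turn. The number of genes with an unadjusted p under 0.05, 8 in the main test, was 5 with voom and quality weights (3 of the 8, with Snap23 and Cplx3, or 7.35% against 8.75% of all genes) and 4 without the 3 mice with conflicting labels (Cplx1 and Cplx2 of the 8, with Syt4 and Stx19, or 5.71% against 6.27%). It was 4 to 10 when leaving out 1 mouse, with 4 of the 8 without naïve mouse 1, withdrawn mouse 1 or withdrawn mouse 4. With the replicate number as a block it was 3 (Vamp1, Snap47 and Snap25, all lower in withdrawn mice, 4.41% against 6.07%), but the numbers do not pair animals. The cause was not tested. Vamp1, Cplx1 and Rab3b stayed under 0.05 without each of the 11 mice, Cplx2 and Vamp8 in 9, Snap47 in 6, Snap25 in 5 and Rab3a in 4 of these fits. Log2 fold changes near 0 turned sign, and no such gene had an unadjusted p under 0.05: Rims1 (0.01) was -0.35 with voom, -0.022 with no filter and -0.11 with the block, Sv2a (0.05) was -0.074 with voom and -0.0017 without the mice with conflicting labels, Sv2b (-0.07) was 0.037 with the block, and Syn1 (-0.03) was 0.0065 with at least 10 counts in every mouse and 0.0051 without those mice. Leaving out 1 mouse gave -0.32 to 0.12 for Rims1, -0.19 to 0.027 for Stx12, -0.036 to 0.14 for Sv2a, -0.18 to 0.045 for Sv2b, -0.14 to 0.10 for Syn1, -0.20 to 0.0070 for Unc13a and -0.16 to 0.062 for Vamp2. The median log2 fold change stayed below 0 in all fits, from -0.19 to -0.04. Depth limits what can be detected to levels above 0.135 to 0.408 CPM, the value of 3 counts without TMM scaling.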
